A study of Homo sapiens with 4 samples.

Results

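Within the TTISS-seq lists of the VEGFA site 2 guide, 20 loci carried a 20-nt protospacer whose letters were identical to those of another listed locus. They formed 10 sets of 2 places, out of 395 loci with a match to the guide and 606 loci listed in at least 1 VEGFA site 2 library. A place was taken as guide-matched when, in the 60-nt sequence deposited with each site, a protospacer beside an NGG protospacer-adjacent motif (PAM) had at most 7 mismatches to the guide and its expected cut lay within 10 nt of the centre. The match with the fewest mismatches was kept on either strand. Merging all listed sites that lay at most 30 nt apart gave 689 loci over all libraries. Read counts were not used to choose the members, but a place had to be listed to be one.

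The libraries came from U2OS cells, a human osteosarcoma cell line given as wild type. Both groups hold 2 libraries, labelled replicates 1 and 2. Cells of the first group received Streptococcus pyogenes Cas9 with the single guide RNA (sgRNA) VEGFA site 2, which targets the gene of the vascular endothelial growth factor VEGFA. The control libraries are labelled non-target and undigested, and the labels do not name a guide for them. The VEGFA site 2 libraries listed 459 and 485 sites with 2855164 and 3182992 counts in total, and the non-target libraries listed 116 and 163 sites with 29017 and 60660 counts.

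Cas9 cuts DNA where its guide pairs with the protospacer and an NGG motif follows, and it tolerates mismatches better at the end far from the PAM than beside it. In TTISS-seq a short double-stranded tag is joined into the break during repair in the cell, so that a count at a place depends on cutting, on repair and on recovery of the tagged fragment. Places with the same protospacer hold the pairing between guide and target constant. What can still vary between them is the first PAM base, the bases on either side, and where in the genome the place lies.

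The 30 bases at each place of the 2 sets with the most counts are shown because they hold the same protospacer beside different PAMs and flanks. They run from 5′ to 3′ on the protospacer's strand, and capitals mark the PAM.
CLYBL: cccccccccccccccgcctcAGGcaaggta
SBF1: cccccccccccccccgcctcCGGcctccat
KLHL23: ccacccccccaccccgccccAGGttttgct
ENSG00000270792: ccacccccccaccccgccccTGGcaggccc

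Sets are named by the genes that hold their places, or by the nearest start of a protein-coding gene for the 6 intergenic places (AQP7B, COL6A1, CCDC188, IGLL1, CD83 and SYNM). The shared protospacers had 4 mismatches in 2 sets, 5 in 3 sets, 6 in 4 sets and 7 in 1 set. Counting positions from 1 at the guide's 5′ end, the base at position 2 was mismatched in all 10 sets, and the bases at positions 1 and 8 in 9 sets each. Position 19, in the PAM-proximal part where mismatches are less tolerated, was mismatched in 7 sets and position 16 in 6 sets. All 10 sets matched the guide at positions 7, 9, 12, 13, 14, 17, 18 and 20. Positions 1, 2 and 8 were also the most often mismatched among the other 375 matched loci, at 278, 280 and 287 loci. Positions 16 and 19 were mismatched there at 150 and 156 loci, a smaller share than the 12 and 14 of the 20 member places. The positions matched in all 10 sets were mismatched there at 6 to 62 loci each. These shares were not tested. The CLYBL and SBF1 protospacer and that of the ENSG00000232413 set both carried an unbroken run of 15 C. These protospacers differed from each other by 1 base, and so did those of the CD83 and SYNM sets.

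Both places had the same PAM in 7 of the 10 sets and the same base after the PAM in 8. They lay on different chromosomes in 9 sets and on opposite strands in 9, RAP1GAP2 and JAK1 being the exception on strand. Around every pair the identical stretch was short, from 20 to 31 nt including the protospacer, and it was the protospacer alone in the 3 sets whose PAMs differ. In 8 sets the surroundings were unlike, since 48 to 62 edits were needed to turn the 100 nt before one place into those before the other, and 54 to 59 for the 100 nt after. The other 2 sets stood in related DNA. There the distances were 5 and 14 edits for the KMT5A and AQP7B set, and 11 and 7 edits for the CCDC188 and IGLL1 set. The 60 nt centred on the expected cut of each of the 20 places occurred once in hg38 as an exact copy. Near-identical copies were not searched for, and whether reads were assigned to the right place was not tested.

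At the 20 places, 3.65% ± 0.00685 (SD, n = 2) of all listed VEGFA site 2 counts were found, as 3.65% in replicate 1 and 3.66% in replicate 2. The other 375 guide-matched loci held 93.1% and 92.7%. Most counts of the 20 places came from the CLYBL and SBF1 set, whose places ranked at numbers 16 and 25 among the 395 matched loci by mean share. The mean share per place ran from 0.00193% to 1.78% with a median of 0.00901%, against 0.0269% for the other matched loci, with no test of this difference. Of the 20 places, 8 were listed in both libraries, 9 in replicate 1 only and 3 in replicate 2 only. Thus 40% of the places were listed in both, against 70.4% of the other matched loci (264 of 375). Finally, 1 of the 20 places had any non-target count, against 87 of the 375 other matched loci (23.2%).

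Cas9 is expected to cut 3 nt from the PAM. The listed position was the expected one at 15 places, lay 1 nt away at 4 and lay 8 nt away at 1, the place in MIR4432HG. Of the 8 places listed in both libraries, 7 had the same position in both replicates. At SBF1 the replicates listed positions 50446373 and 50446374.

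The CLYBL and SBF1 set had 4 mismatches to the guide. The first place lies at chr13:99894732-99894751 (hg38) on the minus strand, within CLYBL, a mitochondrial citramalyl-CoA lyase gene, but outside its canonical transcript. It held 50931 counts in replicate 1 and 56360 in replicate 2, which is 1.78% ± 0.00931 (SD, n = 2) of the listed counts. The second place lies at chr22:50446357-50446376 on the plus strand, in exon 41 of SBF1, a gene of the myotubularin-related family, in its 3′ UTR. It held 31132 and 37474 counts, or 1.13% ± 0.0615 (SD, n = 2), and neither place was listed in a non-target library. CLYBL was thus the higher place in both replicates, by 1.64-fold in replicate 1 and 1.50-fold in replicate 2. On the log2 scale the difference in share was 0.65 ± 0.10 (SE), or 1.57-fold. It passed the test (limma across all pairs of matched loci, Benjamini-Hochberg adjusted p = 1.51e-05, range over the alternatives 5.95e-07 to 0.0960). The highest of these values, which ends the call, came from the fit without a trend of the variance on the mean count. A pair gives only 2 ratios, so here and in the sets below SE and p rest mostly on the spread of all pairs (13.9 prior degrees of freedom). Those pairs share loci, and the pair's own replicate spread was not tested alone. The places differed in the first PAM base, A at CLYBL and C at SBF1, and in base composition. The 100 nt before and after the CLYBL place held 31% and 32% G or C, and those around SBF1 63% and 58%. Because PAM base, composition and place differ together in 1 pair, their parts in the difference cannot be told apart.

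Between KLHL23 and ENSG00000270792 the picture was much the same at a lower level. This protospacer had 5 mismatches. At chr2:169716824-169716843, on the plus strand and within KLHL23, a gene of the Kelch-like family, outside its canonical transcript, the counts were 10687 and 10866, or 0.358% ± 0.0233 (SD, n = 2). It was the only one of the 20 places with a non-target count, 12 in non-target replicate 2. At chr20:10933310-10933329, on the minus strand in intron 4 of the long non-coding RNA gene ENSG00000270792, the counts were 5729 and 7312, or 0.215% ± 0.0206 (SD, n = 2). KLHL23 was higher by 1.87-fold in replicate 1 and 1.49-fold in replicate 2. The log2 difference of 0.74 ± 0.24 (SE), or 1.66-fold, also passed limma's test (adjusted p = 0.0113, range over the alternatives 0.00709 to 0.0780). Here too the fit without the variance trend gave the highest value and ended the call. The PAM was AGG followed by T at KLHL23 and TGG followed by C at the other place, and the flanks held 57% and 56% G or C against 43% and 49%. The place with the A-starting PAM was therefore the higher in both of these sets, whereas the place with more G or C was the lower in the first and the higher in the second.

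SRC, the gene of a tyrosine kinase, and the place 38873 bp from the start of COL6A1, a collagen gene, shared a protospacer with 6 mismatches. Both had the PAM AGG followed by A. On the minus strand in intron 1 of SRC, on chromosome 20, the counts were 816 and 875, or 0.0280% ± 0.000771 (SD, n = 2). At the COL6A1 place, on the plus strand of chromosome 21, they were 226 and 533, or 0.0123% ± 0.00624 (SD, n = 2). SRC was the higher in both libraries, but by 3.60-fold in replicate 1 and by 1.64-fold in replicate 2. The log2 difference of 1.28 ± 0.61 (SE), or 2.43-fold, did not pass the test (limma adjusted p = 0.0668, range over the alternatives 0.0387 to 0.675). The COL6A1 place itself moved by 2.11-fold between replicates, the most of the 8 places listed in both. Among these 8 the median change between replicates was 1.09-fold, and among all 272 matched loci listed in both it was 1.21-fold.

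These 3 sets were the ones with both places in both libraries, and 2 of the 3 were called different. As background, 76.7% of all 36856 pairs of the 272 loci were called different, and 73.0% of the 8772 pairs with equal numbers of mismatches. By size, the median fold was 1.66 for the 3 pairs with the same protospacer, 4.02 for pairs with equal numbers of mismatches and 5.01 for all pairs. A difference under 2-fold was seen in 2 of the 3 same-protospacer pairs, in 26.6% of pairs with equal mismatches and in 23.2% of all pairs. With protospacers that differed from each other by 1 base the median was 2.94-fold (39 pairs), with 2 bases 4.76-fold (297 pairs) and with 3 bases 5.41-fold (1289 pairs). Pairs share loci and are not independent, so no test was made between these classes, and 3 pairs are few.

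More sets can be compared within 1 library. In replicate 1, 7 sets were listed at both places, and their folds were all under 4. The median of these 7 was 2.33-fold and the range 1.64-fold to 3.61-fold. In the same library 47.9% of the 13001 pairs with equal numbers of mismatches but different protospacers were under 4-fold, with a median of 4.29-fold. In replicate 2 the 3 sets lay between 1.49-fold and 1.64-fold, against a median of 4.17-fold for 13739 pairs with equal mismatches. These comparisons hold only places that were listed, and a place with too few counts to be listed does not enter them.

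Among the 7 sets of replicate 1, related surroundings did not go with the smallest folds. The KMT5A and AQP7B set, in related DNA and with the same PAM and next base, differed by 2.33-fold. KMT5A encodes a histone lysine methyltransferase, and its place in the 3′ UTR (exon 8, chromosome 12, plus strand) held 1395 and 1459 counts, or 0.0473% ± 0.00214 (SD, n = 2). The other place, on the minus strand of chromosome 2, lies 2840561 bp from the start of AQP7B and held 600 counts in replicate 1, while it was not listed in replicate 2. This was a large count to be missing from the other list, since of the 218 matched loci with at least 600 counts in replicate 1, 11 (5.05%) were unlisted in replicate 2. An equal share would have given 669 counts there. Both places had 5 mismatches to the guide.

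In the CCDC188 and IGLL1 set, which lies in related DNA on chromosome 22, the fold in replicate 1 was 2.81. The place at chr22:20154417-20154436, minus strand, 3364 bp from the start of CCDC188, held 722 counts, or 0.0253% with a 95% Wilson interval of 0.0235% to 0.0272%. The place at chr22:23389314-23389333, plus strand, 190972 bp from the start of the immunoglobulin lambda-like gene IGLL1, held 257 counts, or 0.00900% with an interval of 0.00797% to 0.0102%. These intervals cover counting error only. Both had the PAM AGG followed by G, and their listed 30 bases from protospacer to flank were the same. Neither was listed in replicate 2, where equal shares would have given 805 and 287 counts. Of the 200 matched loci with at least 722 counts in replicate 1, 6 (3.00%) were unlisted in replicate 2.

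ENSG00000287673 and GARIN4 shared the protospacer farthest from the guide, with 7 mismatches. The place at chr18:47266322-47266341, minus strand, in intron 1 of the long non-coding RNA gene, held 250 and 348 counts, or 0.00984% ± 0.00154 (SD, n = 2). The place at chr1:212624686-212624705, plus strand, in the 5′ UTR in exon 1 of GARIN4, 228 bp from its start, held 142 counts in replicate 1 and was not listed in replicate 2. In replicate 1 the lncRNA place was the higher by 1.76-fold. Both had TGG followed by G as PAM and next base, and the lower place had the higher G or C share on both sides, 57% and 61% against 49% and 45%.

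In the RAP1GAP2 and JAK1 set and the ENSG00000232413 and ENSG00000285444 set, each library listed a different place. RAP1GAP2, a GTPase-activating protein gene, held 521 counts in replicate 2 only, at chr17:2778178-2778197 outside its canonical transcript. JAK1, which encodes a cytokine receptor kinase, held 229 counts in replicate 1 only, at chr1:64842456-64842475 in intron 17. Both places are on the minus strand beside AGG. Likewise ENSG00000232413, at chr9:126124206-126124225 on the plus strand in intron 1 of that lncRNA gene, held 375 counts in replicate 1 only. Its partner at chr13:51767777-51767796 on the minus strand, in intron 10 of ENSG00000285444, held 285 in replicate 2 only. Their protospacer differs from that of CLYBL and SBF1 by 1 base, a further mismatch at position 19, and the counts stand beside 31132 to 56360 for those places. No fold within a library can be given for either set.

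In the last sets no place was in both lists either. The place at chr6:14057762-14057781, minus strand, 59492 bp from the start of CD83, held 377 counts in replicate 1. The MIR4432HG place, at chr2:60403868-60403887 on the plus strand in intron 1, held 112. This was a 3.37-fold difference between places with the same AGG and the same next base. However, the listed position at MIR4432HG lay 8 nt from the expected cut. The place at chr15:99136230-99136249, minus strand, 38015 bp from the start of SYNM, an intermediate filament gene, held 317 counts in replicate 2 only, beside AGG. The place within DAPL1, at chr2:158819790-158819809, plus strand, outside its canonical transcript, held 110 counts in replicate 1 only, beside GGG. Taken over the 12 places listed in 1 library, between 3.00% and 15.7% of the matched loci with as many counts in that library were missing from the other list.

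Over the 7 sets with both places in replicate 1, composition and position were compared between the higher and the lower place. The higher place had the higher G or C content over the 100 nt on both sides in 3 sets, an equal content in 1 and a lower one in 3. The higher place was nearer to a start of a protein-coding gene in 5 of the 7. It lay in a gene in 5 sets and the lower place in 4. No test was made on counts this small.

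Against the non-target libraries, 5 of the 20 places were called higher with the sgRNA, as were 26.6% of all 689 loci, 30.2% of the 606 loci listed with the sgRNA, 40.8% of the 395 matched loci and 59.2% of the 272 matched loci listed in both VEGFA site 2 libraries. These were CLYBL, SBF1, ENSG00000270792 and KMT5A, each with an adjusted p of 0.0309 in edgeR's quasi-likelihood test with Benjamini-Hochberg adjustment (highest over the alternatives 0.613), and SRC with 0.0358 (highest 0.632). All 5 were unlisted in both non-target libraries, so no fold is given. Because a place had to be listed with the sgRNA to be a member, the choice of members favoured this direction, and the calls are not independent of it. Of the other places listed in both VEGFA site 2 libraries, KLHL23 had 10687 and 10866 counts against 0 and 12 and an adjusted p of 0.209 in edgeR, with a range of 8.59e-05 to 0.863 over the alternatives. The COL6A1 place had 0.106 and ENSG00000287673 0.119, with ranges of 0.0986 to 0.761 and 0.110 to 0.761. The calls depended on the scaling and on each library: with TMM factors edgeR called 0 of the 20 places and 0.0% of all loci (4 places at an unadjusted p under 0.05, as against 7 in the fit used here), DESeq2 called 3 (and 5.22% of all loci), and leaving out VEGFA site 2 replicate 1 or replicate 2 left 0 places and 0 of all loci called by edgeR, with 0 of the places also at an unadjusted p under 0.05.

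The listed places were not in every set all the places in the genome. In hg38 the 10 shared protospacers occurred at 36 places beside an NGG, of which 20 were listed. In 6 sets, all those with the genes CLYBL, KLHL23, KMT5A, SRC, CCDC188 and ENSG00000287673, both genomic copies were listed. The other 4 sets had more copies than were found, with 2 of 5 listed in the RAP1GAP2 set, 2 of 5 in the ENSG00000232413 set, 2 of 9 in the CD83 set and 2 of 5 in the SYNM set. In these 4 sets, 0 of the 8 listed places were in the lists of both replicates, against 8 of the 12 places in the 6 complete sets.

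Listed and unlisted copies in these 4 sets differed in the first PAM base. Of 11 copies beside an A-starting NGG, 7 were listed, against 1 of 13 copies beside CGG, GGG or TGG. That copy was DAPL1, beside GGG, while 0 of 4 copies beside CGG and 0 of 4 beside TGG were listed. The 7 listed copies beside an A-starting NGG include MIR4432HG, whose listed position lay 8 nt from the expected cut. In the 6 sets with every copy listed, 6 copies had A, 1 had C, 2 had G and 3 had T, and all 12 were listed. Across all 10 sets the contrast was smaller, with 13 of 17 copies listed beside an A-starting NGG and 7 of 19 beside the others. Over all members, the first PAM base was A at 13 places (65.0%), C at 1, G at 3 and T at 3, whereas among the other 375 matched loci A was found at 31.2%, C at 24%, G at 20.0% and T at 24.8%. These shares were not tested, since copies of one protospacer are not independent and the 4 sets were separated by the listing itself.

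Other properties of the copies overlapped. The median G or C content of the 100 nt before and after was 57% and 52% at the 20 listed copies and 51.5% and 48.5% at the 16 unlisted ones. The longest run of 1 base in the surrounding 60 nt had a median of 6 nt and 5 nt. In genes lay 14 of the 20 listed and 13 of the 16 unlisted copies. The runs in the unlisted copies reached 24 nt and those in the listed ones 16 nt.

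The same 10 protospacers also occurred at 336 places beside a triplet other than NGG, 179 of them from the CD83 set alone. Of these 336, 1 lay at a listed site, in intron 1 of CNN2, which encodes the actin-binding protein calponin, at chr19:1028253-1028272 on the minus strand beside GTC. This site held 7197 counts in replicate 1 and was not listed in replicate 2. Its listed position was 5 nt from the cut expected for that protospacer, and the locus also held a match beside NGG with 5 mismatches in another register, by which it was counted among the matched loci.

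A second group of 14 matched loci also had another copy of their protospacer beside NGG in hg38, but with only 1 place listed and 19 copies unlisted. In 7 of these 14 the listed and an unlisted copy were identical over at least 60 nt, in duplicated DNA, with stretches of up to 6023 nt. Whether reads of such copies were assigned to the right place was not tested. PKD1, which encodes the membrane protein polycystin, was one of these, with 343 and 537 counts in an intron and a stretch of 264 nt shared with its nearest copy. In contrast SPATA20, with 5731 and 6812 counts, shared only 24 nt with its unlisted copy. The members of the 10 sets were identical within the set over at most 31 nt, but the assignment of their reads was not tested either.

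Across the genome, places whose protospacer has more than 1 copy beside NGG were set against those with 1 copy, with no test. At 4 mismatches 6 of 126 places with a repeated protospacer were listed (4.76%, 95% Wilson interval 2.20% to 10%), against 69 of 330 places with a unique one (20.9%, 16.9% to 25.6%). At 5 mismatches the shares were 0.441% (7 of 1589) and 5.40% (125 of 2315). At 6 mismatches they were 0.342% (15 of 4386) and 0.713% (94 of 13190), and at 7 mismatches 0.0305% (6 of 19680) and 0.0830% (49 of 59021). Copies of one protospacer are not independent, and some repeated protospacers have many copies, so that the intervals are too narrow. Some repeated protospacers also stood in duplicated DNA, where the assignment of reads was not tested, so these are shares of places listed and not measures of cutting. The 126 places at 4 mismatches came from 27 protospacers, of which 4 had a listed place.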

How the data were processed

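The authors deposited, for each library, a list of break sites made from TTISS-seq reads, giving per site a count and 60 nt of sequence. The deposited counts were treated as unnormalised reads, as they are whole and sum differently in each library. The submitters' processing notes name hg38. The aligner, the limit below which a site is not listed, the removal of duplicates and any use of molecular identifiers for these lists are not given in the sources used here. Unlisted sites were entered as 0, although such sites may have had reads, and the total of listed counts (29017 to 3182992 per library) is not the sequencing depth. Of 1223 listed sequences, 1222 stood at their listed position in hg38.

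The guide sequence came from the study's guide list. It and the sequences of some places are not reported here. Genes were taken from GENCODE release 44 (canonical transcripts). Groups and replicate numbers came from the sample labels, which do not say that replicates were separate cultures, so p-values measure only the spread between these libraries. The members, lists and tests were chosen with earlier results of these data known.

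Counts were compared between groups with edgeR 4.0.16 (quasi-likelihood test, total listed count as library size, all 689 loci, Benjamini-Hochberg adjustment, threshold 0.05). Pairs of loci within the VEGFA site 2 libraries were compared with limma 3.58.1 (R 4.3.3) on log2 (count + 0.5) differences of the 2 replicates, over all 36856 pairs of the 272 matched loci listed in both, with a trend of the variance on the mean count. With 2 libraries against 2, an exact permutation test of a single value cannot go below 0.333. Scans of hg38 for copies were made in Python 3.11.15, over 24 chromosomes. Wilson 95% intervals cover counting error only, since reads are not independent molecules. The matching, edgeR and limma steps were tested on simulated data with known answers. Named sets were the 8 with the highest summed share and every set with both places in both libraries, and the remaining 2 are given so that every member is accounted for.

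Alternatives were merging within 5 nt, at most 6 mismatches, a cut within 3 nt, TMM factors, DESeq2 1.42.0, a minimum of 10 summed counts, a replicate block, a pseudocount of 5, at least 100 counts per library, no variance trend, unlisted loci kept at 0, and leaving out each library.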

Additional observations from a re-analysis of the deposited data

How the results depend on the processing

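The 20 places became 22 when sites were merged within 5 nt, because 1 place on chromosome 11 was then split into sites 8 nt apart with 163 counts in replicate 1 and 789 in replicate 2, and not because another copy was found. With at most 6 mismatches or a cut within 3 nt there were 18. Without VEGFA site 2 replicate 1 there were 6 and without replicate 2 there were 14. Their share of listed counts, 3.65%, was 3.67% with merging within 5 nt, 3.64% with either of the other limits on the match, and 3.56% to 3.62% when 1 library was left out.

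The number of places called higher than non-target, 5, fell to 0 with TMM factors and to 3 with DESeq2, and lay between 0 and 6 when 1 library was left out, 0 without VEGFA site 2 replicate 1 or 2 and 6 without either non-target library. With the replicate block it was 0 (2 at an unadjusted p under 0.05). These counts moved with those over all loci, where 183 were called higher, 0 with TMM factors, with the block or without either VEGFA site 2 library, 36 with DESeq2, and 250 and 238 without non-target replicate 1 and replicate 2. The labels do not say that replicate numbers pair the libraries, and the replicate differences of the groups correlated at r = 0.133 over the 63 loci listed in all 4 libraries, with only 2 pairs, so the block was not taken as the design. A block could not be added to the comparison of places, which is already made within each library.

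Of the 3 pairs of places, 2 were called different under every alternative except the minimum of 100 counts, with 3, and the fit without a variance trend, with 1. That one was the SRC pair, while the CLYBL pair (adjusted p = 0.0960 in limma) and the KLHL23 pair (0.0780) were lost. The cause was not tested. With unlisted loci kept at 0, all 10 sets gave a pair, and 2 of these 10 were called different. Over the 3 sets with both places in both libraries, the median fold of 1.66 was 1.87 in replicate 1 alone and 1.50 in replicate 2 alone. Over all 7 sets with both places in replicate 1, the median in that library was 2.33. Of the 36 genomic copies, 20 were listed, 8 when both libraries were required and 19 when the listed position had to lie within 3 nt of the cut. For the values of single places and pairs, 199 alternatives left a value called or not called as it was in the main fit. A call was lost in 24, gained in 4, and 0 turned the direction of a called value. The 24 all fell on the places and pairs called in the main fit, whereas most of the 199 concerned values that were not called there. At 10 places called by neither tool, the fitted log2 difference of DESeq2 had the opposite sign, with no adjusted p. The limit on what is listed sets what can be seen at the low places, which held 110 to 722 counts where they were in 1 list only.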

Other observations

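The CNN2 site, where the protospacer shared by the SYNM and DAPL1 places stands beside GTC, had the most counts of any site at a copy of the 10 protospacers that was listed in only 1 library. Of the 68 matched loci with at least 7197 counts in replicate 1, it was the 1 not listed in replicate 2. The value was found after the data were seen and no test was made.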
